A study of Homo sapiens with 6 samples.

Results

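The genes described here are TNIK and 44 genes of the WNT pathway, 45 of the 53719 rows of a gene count table from human embryonic stem cells. TNIK was chosen by its higher count in knockdown than in control libraries, so its values are a description and carry no test. The other 44 were named for their roles in the pathway, from WNT ligands to transcription factors and feedback genes. They were listed with earlier results of these data known, so counts and medians over them are a description too. Cells of H9, an established human embryonic stem cell line with no other genetic change named in the labels, were grown in RSeT medium, which is sold for a naive state. They received by transfection either a gapmer against ALR, the RNA of the alpha satellite repeats of centromeres, or a control gapmer, and RNA was taken after 48 h. A gapmer is an antisense oligonucleotide that directs RNase H to cut its target RNA. Each group has 3 libraries, with the letters a, b and c, and both groups share the cell line, the medium and the transfection. Nothing in the labels says that the libraries came from separate cultures, so the p-values measure the spread between these libraries, which may be technical.

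WNT proteins are secreted lipid-modified ligands that bind Frizzled receptors and their co-receptors LRP5 and LRP6. Without a ligand, a destruction complex of APC, AXIN, GSK3 and casein kinase 1 marks beta-catenin for breakdown. With a ligand, Dishevelled (DVL) proteins draw AXIN to the membrane, and beta-catenin joins TCF/LEF factors at target genes in place of TLE co-repressors. TNIK is a serine/threonine kinase of the germinal centre kinase family that binds TCF7L2 and beta-catenin and phosphorylates TCF7L2. In pluripotent stem cells the pathway takes part both in self-renewal and in the onset of mesoderm and endoderm formation, depending on its level and timing.

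The 250 bases before the annotated gene start are given for 3 genes: TNIK, the destruction complex kinase GSK3B, and SP5, a zinc finger factor that beta-catenin commonly induces. They are shown from RefSeq on GRCh38.p14, 5′ to 3′ on the strand of the gene. The TNIK stretch lies at chr3:171460409-171460658 on the minus strand, that of GSK3B at chr3:120094448-120094697 on the minus strand and that of SP5 at chr2:170715087-170715336 on the plus strand. Capitals mark short words that TCF/LEF factors prefer. The search covered CTTTGAA on both strands, then likewise CTTTGAT on both strands, CTTTGTA on both strands and CTTTGTT on both strands, and the matches do not overlap in these stretches.
TNIK: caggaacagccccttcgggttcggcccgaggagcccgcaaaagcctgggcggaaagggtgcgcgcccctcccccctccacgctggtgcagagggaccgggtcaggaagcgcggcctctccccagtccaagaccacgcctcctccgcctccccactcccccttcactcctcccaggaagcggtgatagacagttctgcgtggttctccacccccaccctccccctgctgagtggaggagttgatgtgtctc
GSK3B: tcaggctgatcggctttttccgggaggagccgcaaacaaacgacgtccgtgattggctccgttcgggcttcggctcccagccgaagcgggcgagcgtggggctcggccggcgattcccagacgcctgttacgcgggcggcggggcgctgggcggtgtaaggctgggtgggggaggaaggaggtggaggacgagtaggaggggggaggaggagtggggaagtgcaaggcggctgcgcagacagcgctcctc
SP5: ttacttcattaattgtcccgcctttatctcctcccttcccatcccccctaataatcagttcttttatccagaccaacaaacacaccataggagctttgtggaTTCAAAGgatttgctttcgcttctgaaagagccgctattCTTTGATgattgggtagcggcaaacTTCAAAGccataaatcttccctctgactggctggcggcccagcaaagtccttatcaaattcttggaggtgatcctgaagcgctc

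The TNIK stretch held 0 of these words and had a GC content of 67.6%, and the GSK3B stretch held 0 as well. SP5 held 3 words, which begin 148, 109 and 84 bases before the gene start. A stretch was found for 33 of the 45 members, and 2 of them, DKK1 and SP5, held a word, which is 6.06%. Among all 35116 RefSeq promoter stretches of the same length the share was 12%. The median GC content was 68% over the 33 members and 58% over all genes with a stretch, with the first stretch of each gene symbol taken. A match is a description of letters and not a binding site, and a stretch without one says nothing about the factor.

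Total counts ran from 25087629 to 36576752 per library. Knockdown library a stood apart from the other 5: it had a count in 29678 rows, against 25898 to 26788, and lay at -53.4 on the first principal component, against 4.82 to 15.4. ALR itself was not analysed here. Summed pluripotency markers lay between 3319 and 3744 CPM (the count scaled to library size by TMM) in knockdown and between 3278 and 3327 CPM in control libraries. One of these markers, SOX2, was listed at 0 in all 6 libraries, and POU5F1 lay between 87.8 and 152 CPM. The 8 naive markers summed to 72.4 to 80.6 CPM in knockdown and 72.7 to 78.1 CPM in control libraries. The 5 primed markers with a row summed to 211 to 241 and 195 to 224 CPM, with THY1 listed at 0 throughout. Of the naive markers, TFCP2L1 lay between 23.9 and 32.2 CPM, DPPA3 between 18.1 and 21.9 CPM and KLF4 between 16.5 and 19.1 CPM. DPPA5 lay between 0.809 and 1.23 CPM and KLF17 between 0.0275 and 0.353 CPM. KLF17, a defining marker of the naive state, was thus close to 0. The summed primitive streak and mesoderm markers lay at 13 to 14.8 CPM in knockdown and 10.3 to 12.6 CPM in control libraries, with no overlap. Of all genes taken singly, 9.55% did not overlap in this direction. Of these 5 markers MIXL1 made up most, at 9.94 to 14.1 CPM over the 6 libraries. MIXL1 had a log2 fold change of 0.21 ± 0.11 (SE) and an edgeR adjusted p of 0.403. T (brachyury) lay at 0.0791 to 0.317 CPM and MESP1 and HAND1 at or near 0. Their part in the results was not tested. Summed endoderm markers lay at 2.01 to 3.42 and 1.79 to 2.45 CPM, neural markers at 1.98 to 2.4 and 1.71 to 2.84 CPM, and trophectoderm or amnion markers at 1.15 to 1.41 and 1.07 to 1.71 CPM. Fibroblast markers lay at 86.6 to 96.2 CPM in knockdown and 90.4 to 104 CPM in control libraries. Most of that came from COL1A2, at 60.7 to 81 CPM, while COL3A1 lay at 0 to 0.356 CPM. Of the 27 markers tested, 0 passed an adjusted p of 0.05 with edgeR or limma-voom and 1, POU5F1, passed as higher with DESeq2's Wald test. That test also passed more of all genes than edgeR, as the closing section gives. At an unadjusted p under 0.05 edgeR had 4 of 27 higher and 2 lower, where 6.68% and 7.57% of all genes were. In bulk RNA fewer cells that hold a transcript and less of it per cell cannot be told apart.

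TNIK lies on the minus strand of chromosome 3 at 171061339 to 171460408 in GENCODE release 29 (GRCh38), identifier ENSG00000154310.16, and spans 399.1 kb. A microRNA gene on the same strand, MIR569, and a small RNA gene on the other strand lie within it. TNIK had 911, 954 and 772 counts in the knockdown libraries, given here and throughout in the order a, b, c, and 638, 694 and 760 counts in the control libraries. Scaled to library size these were 32.1, 28.6 and 30.5 CPM in knockdown and 22.4, 22.4 and 20.9 CPM in control libraries. Each knockdown library was above each control library, and knockdown library a was the highest. The mean was 30.4 ± 1.77 CPM (SD, n = 3) in knockdown and 21.9 ± 0.855 CPM (SD, n = 3) in control libraries, which gives a log2 fold change of 0.47 ± 0.08 (SE), or 1.39-fold. Over 16 alternative settings of the analysis the TNIK value lay between 0.43 and 0.54. Without knockdown library a, the one that stood apart, it was 0.43.

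**Figure D1:**
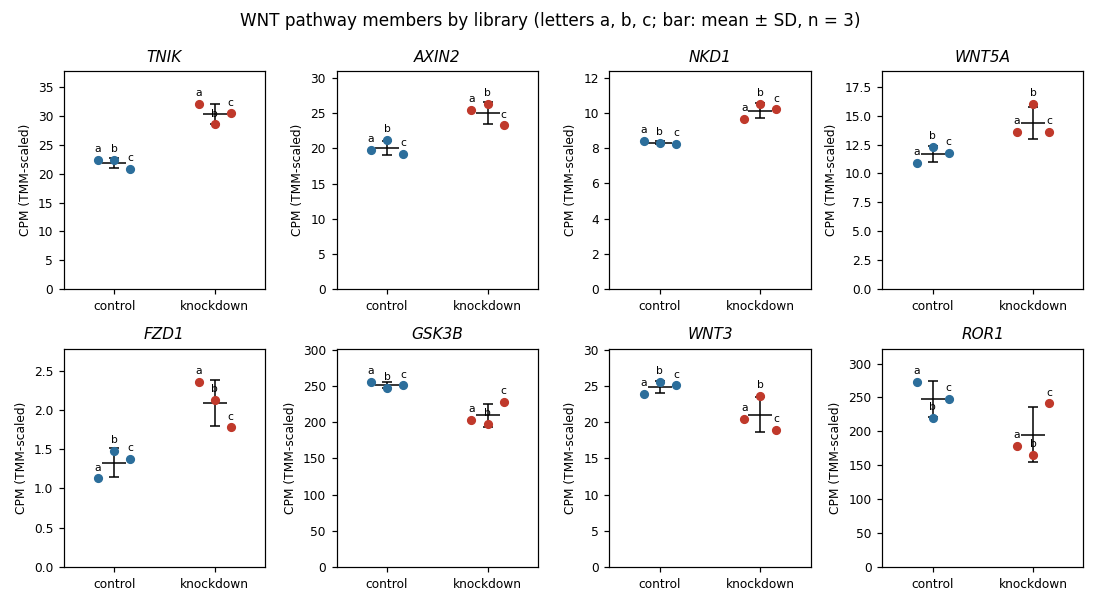
CPM (TMM-scaled, linear axis from 0) of 8 pathway members in the 3 control and 3 knockdown libraries; points are libraries with their letters, and bars are the mean ± SD. TNIK lies at 20.9 to 22.4 CPM in control and 28.6 to 32.1 CPM in knockdown libraries, while the ranges of ROR1 overlap.

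Of the 45 members, 40 had enough counts to be tested, and WNT3A, DKK1, DKK4, DVL3 and SP5 did not. Among the 40, 27 log2 fold changes were above 0 and 13 below, with a median of 0.08. Without TNIK, which was chosen by its rise, 26 were above 0 and 13 below. Over all 19721 genes tested, 10736 were above 0 and 8985 below, with a median of 0.02. Of the 39 tested members other than TNIK, none passed an adjusted p of 0.05 with edgeR's quasi-likelihood test, higher or lower. Over all genes 0.137% passed as higher and 0.649% as lower. At an unadjusted p under 0.05, 4 of these 39 members were higher (AXIN2, WNT5A, NKD1 and FZD1) and 3 were lower (GSK3B, ROR1 and WNT3), where 6.68% and 7.57% of all genes were. With DESeq2's Wald test 1 of the 39 passed the adjusted threshold, GSK3B, and with limma-voom 0 did. DESeq2 gave no adjusted p for WLS, LEF1, FZD1, WNT11, FZD4, WNT5B, LGR5 and RNF43, so these could not pass there. DESeq2's test also passed more of all genes than edgeR, as the closing section gives. The libraries of the 2 groups did not overlap for 7 of the 39 in the higher direction, 17.9%, and for 7 in the lower direction, also 17.9%. The same held for 9.55% of all genes in the higher and 9.37% in the lower direction. The balance of signs moved with the setting. After a trend with GC content was taken out, 19 members lay above 0 and 21 below, with a median of -0.005. With the span trend taken out it was 24 and 16. Without knockdown library b it was 24 and 17, and without control library b or c 25 and 16. It stayed at 27 and 13 with each other scaling. The trend fits covered 15985 genes only, and the causes were not tested. The size of the differences was small, with a median absolute log2 fold change of 0.15 over the 39 members and 0.13 over all genes.

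**Figure D2:**
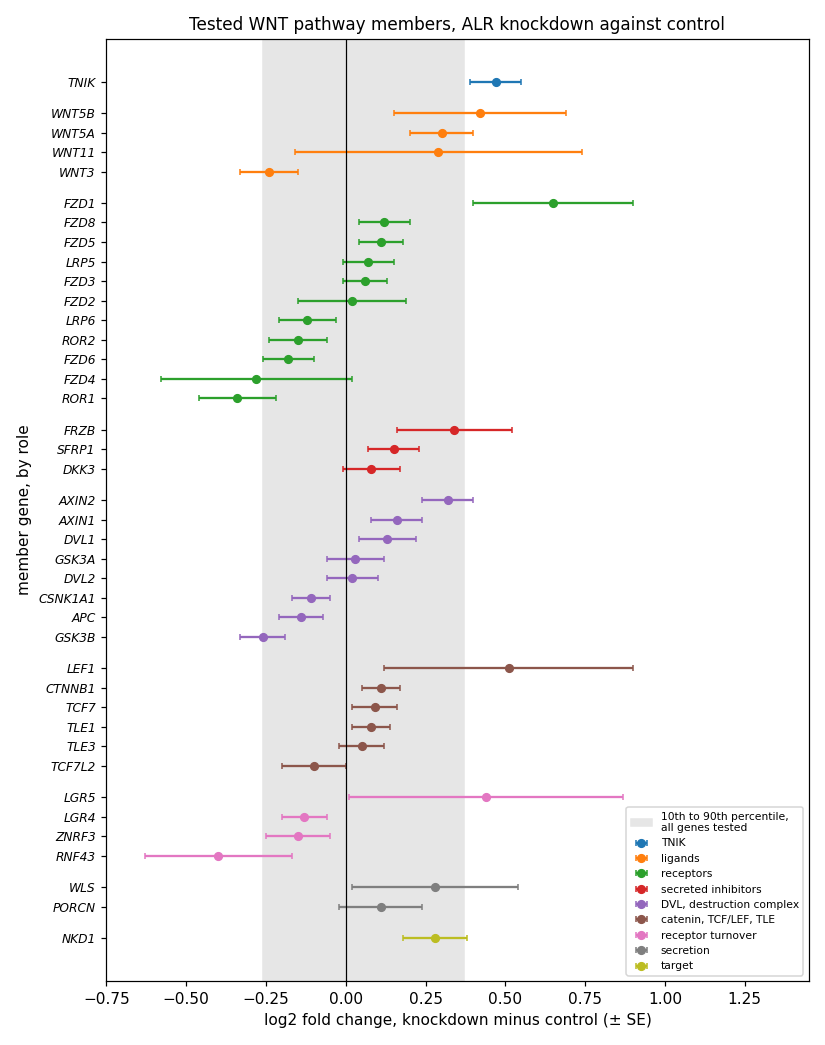
Log2 fold change (knockdown minus control, ± SE) of the 40 tested members, grouped by role; the grey band spans the 10th to 90th percentile of all 19721 genes tested, from -0.26 to 0.37. Of the 40 points, 5 lie above the band, TNIK among them, and 4 below it. By definition 10% of all genes lie above the band and 10% below it.

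Among the ligands, WNT3, which acts through beta-catenin, had the highest level. It had 20.5, 23.7 and 19 CPM in knockdown and 23.9, 25.6 and 25.1 CPM in control libraries. All knockdown values were below all control values, by a narrow gap between knockdown b and control a. The log2 fold change was -0.24 ± 0.09 (SE), with an adjusted p of 0.269 by edgeR. WNT5A, which acts mainly through ROR receptors and without beta-catenin, had 13.6, 16 and 13.6 CPM in knockdown and 10.9, 12.3 and 11.8 CPM in control libraries. Here the knockdown libraries were the higher ones without overlap, with a log2 fold change of 0.30 ± 0.10 (SE) and an edgeR adjusted p of 0.215. WNT5B, its close relative, ran from 2.1 to 3.21 CPM in knockdown and from 1.3 to 2.5 CPM in control libraries. Its log2 fold change was 0.42 ± 0.27 (SE), and 0.23 without knockdown library a. WNT11, also a ligand of the branch without beta-catenin, stayed between 0.225 and 0.514 CPM. WNT3A, a strong activator of beta-catenin, was not tested: it had 22, 4 and 11 counts in knockdown and 4, 1 and 7 counts in control libraries, and its ranges overlapped.

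Set per kb of exon, which allows genes to be compared, WNT3 made up 33.6% ± 2.87 (SD, n = 3) of the summed CPM per kb of 19 WNT genes in knockdown and 40.9% ± 0.913 (SD, n = 3) in control libraries. WNT5A made up 13.5% and 11.3%, and WNT8A, a ligand of the primitive streak, 7.64% and 4.05%. WNT8B went with WNT8A at 9.98% and 7.79%, and WNT9A with WNT3 at 15.2% and 18.5%. The sum itself was 14.4 ± 0.767 CPM per kb in knockdown and 14 ± 0.658 CPM per kb in control libraries (n = 3 each, SD), so the make-up of the ligand transcripts differed in value while their sum overlapped. These shares depend on each other because they add to the whole, and they were not tested.

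FZD5 was the Frizzled receptor with the highest level and the highest of all members per kb of exon. It had 776, 854 and 743 CPM in knockdown and 721, 748 and 738 CPM in control libraries, which overlap, with a log2 fold change of 0.11 ± 0.07 (SE) and an edgeR adjusted p of 0.535. Of the summed CPM per kb of 10 Frizzled genes FZD5 held 50.7% ± 0.708 in knockdown and 50.2% ± 0.426 in control libraries (n = 3 each, SD), and FZD7 36.4% and 36.3%. The receptor make-up was thus nearly the same in value in both groups. FZD1 had the largest log2 fold change of the 40 tested members, from a low level: 2.36, 2.13 and 1.78 CPM in knockdown and 1.13, 1.48 and 1.38 CPM in control libraries. The groups did not overlap, and the log2 fold change was 0.65 ± 0.25 (SE) with an edgeR adjusted p of 0.266. FZD1 made up only 0.129% of the Frizzled sum in knockdown and 0.0873% in control libraries.

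ROR1, a receptor-like protein of the tyrosine kinase family that binds WNT5A, had 179, 165 and 241 CPM in knockdown and 273, 220 and 248 CPM in control libraries. Knockdown libraries a and b were below all controls, while knockdown library c lay among them. The log2 fold change was -0.34 ± 0.12 (SE) with an edgeR adjusted p of 0.245, and it passed in 2 of 16 alternatives: edgeR with no filter on low counts (-0.34, adjusted p = 0.0011) and edgeR without knockdown library c (-0.54, adjusted p = 0.00399). ROR1 was picked out here after its values were seen. An antisense gene, ROR1-AS1, lies within it, and the strand setting of the counting is not given in the sources used here. Its relative ROR2 ran from 59.2 to 76.1 CPM in knockdown and from 69.3 to 79.6 CPM in control libraries. The co-receptors LRP5 and LRP6 had log2 fold changes of 0.07 ± 0.08 and -0.12 ± 0.09 (SE), and FZD2, FZD3, FZD6 and FZD8 lay between -0.18 and 0.12. FZD4, at about the low level of FZD1, had a value of -0.28 ± 0.30 (SE), with every knockdown library below every control library.

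Of the secreted inhibitors, which bind WNT proteins or block LRP co-receptors, SFRP1 had the highest level, with 33, 36.2 and 30.9 CPM in knockdown and 28.9, 32.5 and 28.8 CPM in control libraries. Its groups overlapped, and the log2 fold change was 0.15 ± 0.08 (SE) with an edgeR adjusted p of 0.434. FRZB, another decoy that binds WNT proteins, had 4.83, 3.45 and 4.08 CPM in knockdown and 3.24, 3.41 and 3.11 CPM in control libraries. Its groups did not overlap, but knockdown b and control b lay close together, and knockdown library a was the highest. The log2 fold change of FRZB was 0.34 ± 0.18 (SE), with an edgeR adjusted p of 0.419, and 0.20 without knockdown library a. DKK3, a divergent Dickkopf protein, lay at 0.08 ± 0.09 (SE). DKK1, an LRP blocker that beta-catenin induces, had 7, 5 and 4 counts in knockdown and 0, 2 and 5 counts in control libraries. DKK4 had 0, 1 and 2 counts in knockdown and 0 in each control library. Both were near the limit that 3 counts set, which is 0.082 to 0.12 CPM by library, so no fold change is given.

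In the destruction complex the scaffold AXIN2 and the kinase GSK3B differed in opposite directions. AXIN2, which is also a feedback gene that beta-catenin induces, had 25.5, 26.3 and 23.3 CPM in knockdown and 19.8, 21.2 and 19.2 CPM in control libraries. All 3 knockdown libraries were above all 3 controls, with a log2 fold change of 0.32 ± 0.08 (SE) and an edgeR adjusted p of 0.101. GSK3B, which phosphorylates beta-catenin for breakdown, had 203, 198 and 228 CPM in knockdown and 256, 248 and 251 CPM in control libraries. All 3 knockdown libraries were below all 3 controls, and knockdown library c came closest to them. The log2 fold change of GSK3B was -0.26 ± 0.07 (SE), 16.6% below control in value, with an edgeR adjusted p of 0.115. It passed the threshold in 3 of 16 alternatives, namely DESeq2's Wald test (adjusted p = 0.0124), edgeR with no filter on low counts (adjusted p = 0.0233) and edgeR without knockdown library c (adjusted p = 0.00305). AXIN2 passed in 2 of 16, edgeR with no filter (adjusted p = 0.0301) and edgeR without knockdown library c (adjusted p = 0.0318).

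The paralogs differed less in value. AXIN1, the constitutive scaffold, had 55.9, 57.6 and 57.7 CPM in knockdown and 54.2, 45.9 and 53.6 CPM in control libraries, with 0.16 ± 0.08 (SE) on the log2 scale. GSK3A stayed between 26.2 and 31.8 CPM in all 6 libraries, with 0.03 ± 0.09 (SE). Of the GSK3 sum per kb of exon, GSK3B held 78.4% ± 2.74 in knockdown and 81.7% ± 1.10 in control libraries (n = 3 each, SD), with overlapping ranges. APC, the large scaffold that binds beta-catenin, had 46.2, 47.6 and 50.9 CPM in knockdown and 51.4, 53.7 and 54.4 CPM in control libraries. CSNK1A1, the casein kinase 1 that primes beta-catenin for GSK3, had 178, 179 and 173 CPM in knockdown and 189, 193 and 189.9 CPM in control libraries. Both were lower in every knockdown library, by log2 fold changes of -0.14 ± 0.07 and -0.11 ± 0.06 (SE), with edgeR adjusted p of 0.369 and 0.435. Thus of the 8 tested members of this class 2 were higher without overlap, AXIN1 and AXIN2, and 3 were lower without overlap, APC, CSNK1A1 and GSK3B, where 9.55% and 9.37% of all genes were. The AXIN1 value of 0.16 was 0.08 without control library b and 0.03 with the GC trend removed. DVL1 and DVL2, which carry the signal from Frizzled to AXIN, overlapped between groups, with 0.13 ± 0.09 and 0.02 ± 0.08 (SE). DVL3 was listed at 0 in all 6 libraries; SOX2 and PPP2CA, which codes for a widely expressed phosphatase subunit, were listed at 0 too, so this row of zeros is not read as absence.

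CTNNB1, the gene for beta-catenin, had 569, 587 and 549 CPM in knockdown and 511, 529.9 and 534 CPM in control libraries. All knockdown libraries were above all controls, with a log2 fold change of 0.11 ± 0.06 (SE), 8.26% in value, and an edgeR adjusted p of 0.448. TCF7L2, the TCF factor that TNIK binds, ran from 298 to 409 CPM in knockdown and from 345 to 383 CPM in control libraries. Its knockdown libraries a and b lay below all controls and library c above them. TCF7 and the co-repressors TLE1 and TLE3 had log2 fold changes of 0.09 ± 0.07, 0.08 ± 0.06 and 0.05 ± 0.07 (SE). LEF1, a TCF factor that beta-catenin also induces, had 2.19, 0.869 and 1.19 CPM in knockdown and 0.844, 1.32 and 0.798 CPM in control libraries, so its value of 0.51 ± 0.39 (SE) rested on knockdown library a and was 0.05 without it.

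LGR4, a receptor for R-spondin proteins that keep Frizzled at the surface, had the highest level of the receptor turnover genes, with 449.7, 443 and 498 CPM in knockdown and 510.3, 505 and 506 CPM in control libraries. All 3 knockdown libraries were lower, and the controls lay close together, with an SD of 2.79 CPM (n = 3). The log2 fold change was -0.13 ± 0.07 (SE) with an edgeR adjusted p of 0.415. RNF43, a ubiquitin ligase that removes Frizzled from the surface and a feedback gene, had 1.97, 1.8 and 1.42 CPM in knockdown and 2.46, 2.16 and 2.26 CPM in control libraries, lower without overlap, with -0.40 ± 0.23 (SE). Its relative ZNRF3 overlapped, with -0.15 ± 0.10 (SE). LGR5, a stem cell marker in several epithelia and a target of beta-catenin, had 2.08, 0.599 and 0.91 CPM in knockdown and 0.95, 0.805 and 0.881 CPM in control libraries. Its log2 fold change was 0.44 ± 0.43 (SE) and changed sign to -0.24 without knockdown library a. LGR4 held 98.6% of the LGR4, LGR5 and LGR6 sum per kb of exon in knockdown and 98.8% in control libraries.

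PORCN, the enzyme that adds the lipid to WNT proteins, had 7.86, 7.01 and 6.85 CPM in knockdown and 6.26, 7.63 and 6.3 CPM in control libraries, with overlap. Its log2 fold change was 0.11 ± 0.13 (SE), with an edgeR adjusted p of 0.765. WLS, the carrier that takes WNT proteins to the surface, ran from 1.74 to 2.61 CPM in knockdown and from 1.42 to 1.84 CPM in control libraries, with knockdown library c the highest. NKD1, a cytoplasmic inhibitor that binds DVL and is induced by beta-catenin, had 9.66, 10.5 and 10.2 CPM in knockdown and 8.41, 8.31 and 8.23 CPM in control libraries. Its groups were apart, with a log2 fold change of 0.28 ± 0.10 (SE) and an edgeR adjusted p of 0.247. SP5, whose stretch of sequence holds 3 of the words given earlier, had 7, 1 and 1 counts in knockdown and 1, 2 and 2 counts in control libraries, too few to be tested.

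The members that beta-catenin commonly induces did not move as one. Of the 10 on that list (AXIN2, SP5, NKD1, LEF1, TCF7, RNF43, ZNRF3, LGR5, DKK1 and DKK4), 7 were tested, 5 lay above 0 and 2 below, and 0 passed edgeR's adjusted threshold. Over all 19721 genes tested, 10736 lay above 0 and 8985 below. At an unadjusted p under 0.05 there were 2 of 7, AXIN2 and NKD1, both higher, where 6.68% of all genes were higher. With DESeq2's Wald test and with limma-voom 0 passed as well, but DESeq2 gave no adjusted p for LEF1, LGR5 and RNF43. The median log2 fold change of the 7 was 0.28, against 0.02 over all genes, but without knockdown library a it was 0.05, with 4 above 0 and 3 below.

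**Figure D3:**
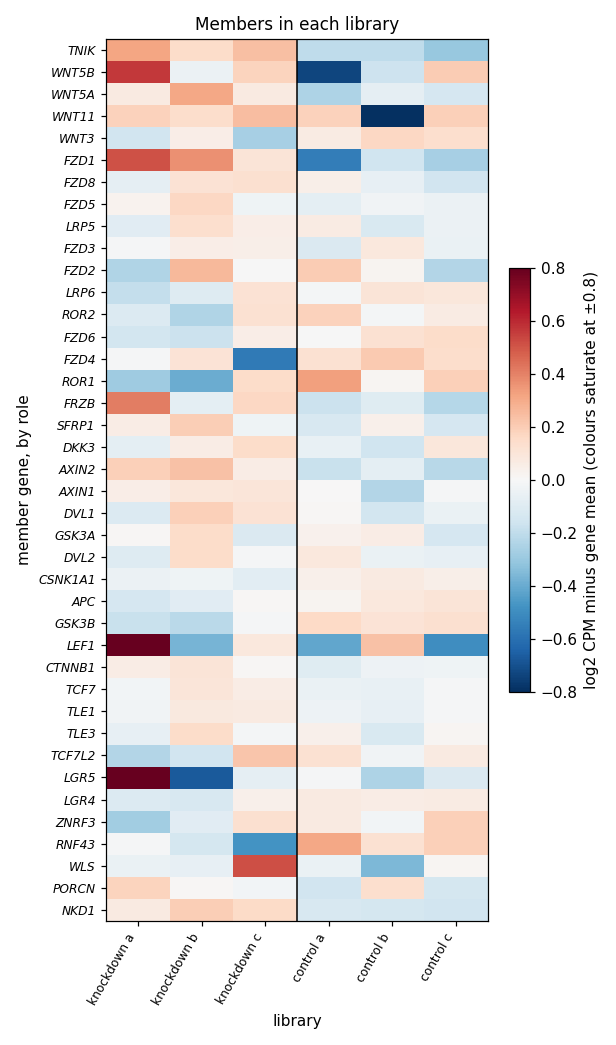
Log2 CPM of each tested member minus its mean over the 6 libraries, with genes in rows by role and libraries in columns, knockdown left of the line and control right of it. TNIK, AXIN2, GSK3B and NKD1 split the columns into their groups, whereas LEF1 and LGR5 are highest in knockdown library a, at 2.19 and 2.08 CPM.

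The levels of the members covered a wide range. Per kb of exon, FZD5 stood at 109.6 ± 2.07 CPM per kb in control libraries, LGR4 at 80 ± 0.44, TCF7L2 at 54.2 ± 2.86 and CTNNB1 at 44 ± 1.04 CPM per kb (SD, n = 3), and the ranges of these 4 did not overlap. TLE1, at 37.8, and ROR1, at 36.8 CPM per kb, overlapped, and GSK3B at 30.8 and CSNK1A1 at 24.7 CPM per kb came next. TNIK was at rank 27 of 45, with 2.57 ± 0.100 CPM per kb (SD, n = 3) in control libraries, and its range overlapped that of FZD2 at 2.42 CPM per kb. Below 1 CPM per kb lay NKD1, WNT5B, WLS, RNF43, FZD1, LEF1, FZD4, WNT11 and LGR5 as well as the 5 members not tested. The exon length is that of all annotated transcripts together, so genes with long unused exons come out too low.

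**Figure D4:**
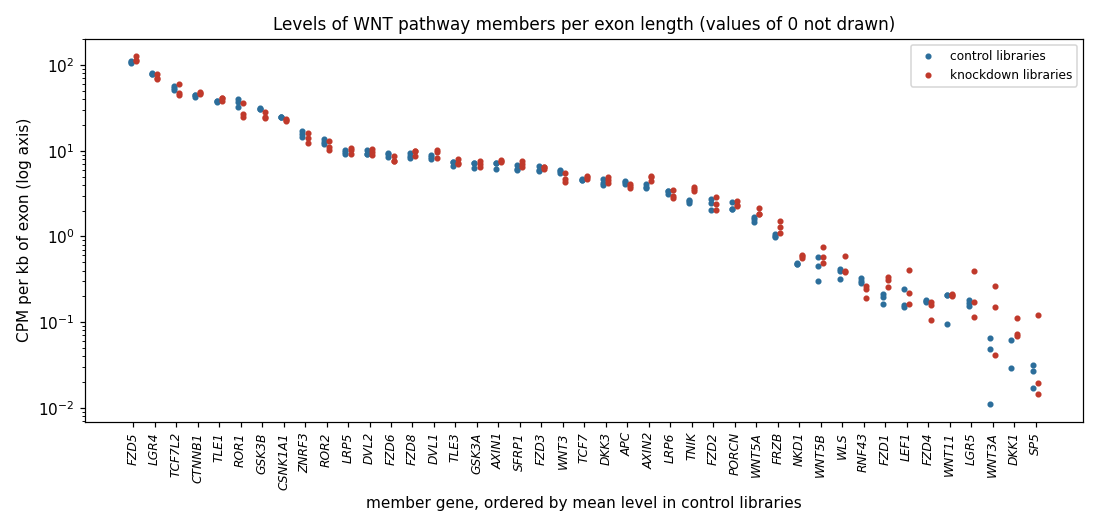
CPM per kb of exon (log axis) of members in each control and knockdown library, ordered by the mean in control libraries; values of 0 are not drawn, which leaves out DVL3 and DKK4. FZD5 is the highest at 109.6 CPM per kb in control libraries and TNIK is 27th at 2.57 CPM per kb.

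Relatives and partners of TNIK had log2 fold changes in both directions, from -0.20 to 0.28. In control libraries TNIK made up 5.91% ± 0.334 (SD, n = 3) of the summed CPM per kb of exon of TNIK, MINK1, MAP4K4 and NRK, the closely related kinases, and in knockdown libraries 8.30% ± 0.719 (SD, n = 3). MAP4K4 held 70.6% and 65.5%, MINK1 18.2% and 20.6%, and NRK 5.28% and 5.58%. The sum was 43.5 ± 0.796 CPM per kb in control and 43.1 ± 1.26 CPM per kb in knockdown libraries (SD, n = 3). Since the shares add to the whole, the higher value of TNIK, chosen by its rise, lowers the other shares by itself. They were not tested. MINK1, the closest relative, had 63.5, 77.6 and 66.9 CPM in knockdown and 64.1, 61.3 and 60.6 CPM in control libraries, which overlap. MAP4K4 had 331, 342 and 339 CPM in knockdown and 361, 362 and 379.7 CPM in control libraries, lower in each, with a log2 fold change of -0.12 ± 0.06 (SE) and an edgeR adjusted p of 0.394. Reads from stretches that these kinases share could be split among them by the counting, which was not tested.

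Of 15 kinases and partners listed beside TNIK, 15 were tested, and with edgeR 0 passed the adjusted threshold, 1 was higher and 2 were lower at an unadjusted p under 0.05 (6.68% and 7.57% of all genes were), and the median log2 fold change was -0.04. DESeq2's Wald test and limma-voom passed 0 as well. TRAF2, an adaptor of tumour necrosis factor receptors that TNIK binds, had 43.5, 49.7 and 49.8 CPM in knockdown and 40.2, 36.7 and 41.1 CPM in control libraries. It was higher without overlap, with 0.28 ± 0.08 (SE) and an edgeR adjusted p of 0.134. MAP4K5 had 96, 95.8 and 107 CPM in knockdown and 114, 115 and 113 CPM in control libraries, with -0.20 ± 0.07 (SE) and an edgeR adjusted p of 0.198. MAP4K3 had 138, 135 and 162 CPM in knockdown and 164, 169 and 164 CPM in control libraries, with -0.19 ± 0.08 (SE) and an edgeR adjusted p of 0.276. Both are more distant kinases of the family and were lower in each knockdown library. The adaptors NCK1 and NCK2 and the small GTPases RAP2A, RAP2B and RAP2C, which bind TNIK, lay between -0.12 and 0.05.

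Beyond the members, 122 other genes of the pathway were listed, and 105 of them were tested. With edgeR and with limma-voom 0 were higher and 3 were lower past the adjusted threshold, and with DESeq2's Wald test 2 were higher, CCND1 and EPHB2, and 5 lower. Of all genes 0.137% were higher and 0.649% lower by edgeR. DESeq2's test passed more of all genes than edgeR, as the closing section gives, so its counts are not set against these shares. At an unadjusted p under 0.05, 12 of the 105 were higher and 11 lower, where 6.68% and 7.57% of all genes were, and the median log2 fold change was 0.06. TLE4, a co-repressor of TCF factors, fell in knockdown: it had 64.4, 61.8 and 68.5 CPM in knockdown and 105, 94.1 and 94.4 CPM in control libraries, with -0.59 ± 0.07 (SE) and an edgeR adjusted p of 0.00214. The call held in 16 of 16 alternatives, with adjusted p between 4.86e-11 and 0.0391. Of the TLE sum per kb of exon, TLE4 held 13.9% ± 0.852 in knockdown and 20.4% ± 0.948 in control libraries (n = 3 each, SD), and TLE1, a member, 70.1% and 64.6%. Since these shares add to the whole, a lower TLE4 raises the others by itself, and they were not tested. TBL1XR1, a subunit of the NCoR co-repressor complex that also acts with beta-catenin, had 422, 408 and 498 CPM in knockdown and 643, 613 and 646 CPM in control libraries. Its log2 fold change was -0.52 ± 0.08 (SE) with an edgeR adjusted p of 0.0121, but with control library a, b or c left out the adjusted p was 0.115, 0.0853 and 0.129. CAMK2D, a calcium-dependent kinase of the branch without beta-catenin, had 81.7, 76.4 and 92.2 CPM in knockdown and 117, 104 and 109 CPM in control libraries, with -0.40 ± 0.08 (SE) and an edgeR adjusted p of 0.0423. That call held in 7 of 16 alternatives only. It was lost, among others, without knockdown library a (adjusted p = 0.102) or b (0.154) and without control library a (0.234), b (0.134) or c (0.250). Knockdown library c was the one nearest to the controls for TLE4, TBL1XR1 and CAMK2D alike.

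**Figure D5:**
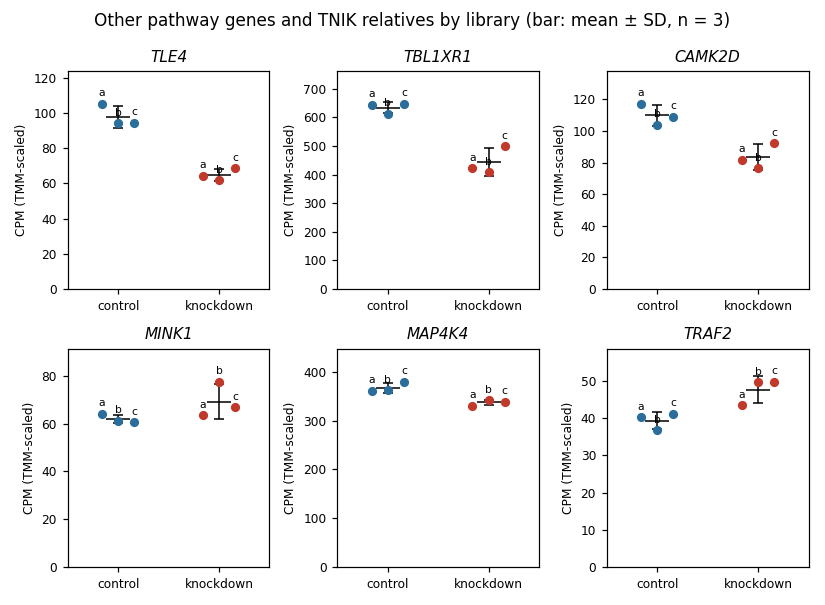
CPM (TMM-scaled, linear axis from 0) of 3 pathway genes outside the members that passed the test and 3 relatives or partners of TNIK that did not, by library; bars are the mean ± SD. TLE4 lies at 61.8 to 68.5 CPM in knockdown and 94.1 to 105 CPM in control libraries, while MINK1 overlaps.

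No target or ligand of the wider list passed the adjusted threshold in edgeR with the default filter, TMM scaling and all libraries, but some did under other settings. EPHB2, a receptor tyrosine kinase that beta-catenin induces in the gut, had 29.6, 29.1 and 30.7 CPM in knockdown and 22.3, 24.4 and 23.5 CPM in control libraries, with 0.35 ± 0.07 (SE) and an edgeR adjusted p of 0.0527. EPHB2 passed in 8 of 16 alternatives, with adjusted p from 0.00784 to 0.250 over all 16. CCND1, the gene for cyclin D1, had 123, 139 and 124 CPM in knockdown and 111, 107 and 105 CPM in control libraries, with 0.26 ± 0.07 (SE) and an edgeR adjusted p of 0.112, and it passed in 3 of 16 alternatives. WNT8A, at 0.96 ± 0.27 (SE), had the largest value of the list, with 2.26, 2.04 and 2.57 CPM in knockdown and 1.27, 1.42 and 0.853 CPM in control libraries, and an edgeR adjusted p of 0.134. It passed in 1 of 16 alternatives, edgeR with no filter on low counts (adjusted p = 0.0385). DESeq2's Wald test, another of the 16, gave WNT8A no adjusted p. These 3 genes were named after their values were seen, and for each the knockdown libraries were above the controls. PRICKLE1, of the planar polarity branch, was lower in each knockdown library, with -0.38 ± 0.09 (SE) and an edgeR adjusted p of 0.0913, and passed in 4 of 16 alternatives. PLCB1, a phospholipase of the calcium branch, had 71.8, 55.9 and 73.7 CPM in knockdown and 92.7, 83.7 and 91.6 CPM in control libraries, also lower in each. Its log2 fold change was -0.41 ± 0.10 (SE) with an edgeR adjusted p of 0.0797, and it passed in 5 of 16 alternatives, with adjusted p from 2.58e-05 to 0.380 over all 16. Both were also picked after their values were seen.

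The length of the gene moved with the direction of the values. Of 16 members that span more than 100 kb, 8 lay below 0 (50%, median -0.02), and of 24 shorter ones 5 did (20.8%, median 0.10). Over all genes with a known span the shares were 58.8% and 41.1%. Spearman's rho between log2 fold change and span was -0.279 over 39 members without TNIK and -0.171 over 15985 genes. These values are a description, since the genes share the same 6 libraries. TNIK, with its span of 399.1 kb, lay on the other side of this pattern, and with the span trend taken out its log2 fold change was 0.54. GSK3B, at 273.1 kb, and ROR1, at 407.5 kb, lay on its lower side, and with the span trend taken out they stood at -0.21 and -0.27. The lower genes named from the wider list, all named by their values, were long too: TLE4 (155.1 kb), TBL1XR1 (208.7 kb), CAMK2D (310.9 kb), PLCB1 (891.1 kb) and PRICKLE1 (133.6 kb). Other genes went against the pattern. WNT3 (70.65 kb) and RNF146 of the wider list (21.96 kb, log2 fold change -0.19) were shorter and lower. EPHB2 (210.7 kb), HIPK2 (216.2 kb, 0.24) and PRICKLE2 (353.2 kb, 0.31) were long and higher. The part of length in these values was not tested.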

How the data were processed

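RNA from 6 libraries of H9 cells was sequenced. Unscaled whole-number counts by gene symbol were deposited by the authors. Per the submitters' processing notes, Trimmomatic 0.39, STAR 2.7.8a, featureCounts (Subread 2.14.2) and build hg38 were used; annotation and strand setting are not given in the sources used here. Groups follow the sample titles. The members and lists were chosen with earlier results of these data known. Counts were tested with edgeR 4.0.16 (R 4.3.3): filterByExpr defaults, TMM scaling, quasi-likelihood F-test with group as the only term, 2-sided, Benjamini-Hochberg adjustment over all 19721 genes, threshold 0.05. The common biological coefficient of variation was 0.103. Alternatives used DESeq2 1.42.0, limma 3.58.1, other scalings and filters, a replicate block, trends with span or GC content (81.1% of genes had a value) and each library left out. The script was tested on simulated data. Libraries were given in full for TNIK, members past the threshold, members without overlap and with an unadjusted p under 0.05, the highest member of each role, and in the other lists genes past the threshold or else the 3 with the smallest p; other members were added after their values were seen. Of the table's rows, 31459 matched GENCODE 29 by name and 1412 by another symbol.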

Additional observations from a re-analysis of the deposited data

How the results depend on the processing

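Only 3 libraries per group limit precision, and low members (LEF1, LGR5, WNT11) rest on few counts. The number of genes past the threshold, 155, was 536 with DESeq2's Wald test, 1064 with no filter on low counts, 236 with the span trend and 237 with the GC trend removed, and 26 to 1309 with 1 library left out. Of the 155, 27 were higher, against 56 of 158 scaled by library size alone and 45 of 157 by upper quartile. Leaving aside TNIK, which was chosen by its rise, 0 of the other members passed, against 1 with DESeq2's Wald test, 3 with no filter and 5 without knockdown library c (AXIN2, GSK3B, LGR4, ROR1 and TCF7L2), and 0 without any other single library. With TNIK included, as a description of the settings, these counts were 1, against 2, 4 and a range of 0 to 6. TNIK was chosen by the same difference between these libraries, so its part in these counts carries no test. For the wider list the count of 3 became 7 with DESeq2's Wald test, 14 with no filter and 1 to 13 with 1 library left out (13 without knockdown library c, 1 without control library a, b or c). The number of all genes past the threshold moved with the same settings, from 155 to 536, to 1064 and to between 26 and 1309. The counts of members and of the wider list are therefore not read as results about the pathway. The members' median of 0.08 was -0.005 with the GC trend removed, and 0.04 to 0.11 otherwise. PORCN changed sign to -0.005 with the GC trend removed. Of 320 values of 20 single genes, 296 kept direction and side of the threshold, 12 lost it, 11 gained it and 1 reversed. The causes were not tested. Deviations of same-lettered libraries had correlations of 1.23e-05, 0.116 and -0.0251, which does not settle whether the letters pair the libraries. With a replicate block 393 genes passed, against 155 without it. Of the members other than TNIK 0 passed with the block, and of the wider list 5 did. The members' median was then 0.08, and the TNIK value, as a description, was 0.47.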
